A study of Mus musculus with 12 samples.

Results

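Skeletal muscle and liver were compared on 8 of the 12 arrays of a study of unacylated ghrelin (UAG), the form of the stomach peptide ghrelin that lacks its fatty acid. The 4 arrays whose titles begin with Muscle held RNA of M. vastus lateralis, a thigh muscle, and the 4 whose titles begin with Liver held RNA of liver. Each tissue had 2 arrays from mice injected intraperitoneally with saline and 2 from mice given UAG at 20 nmol/kg. All animals were 12 week old females on C57bl/6 that lack Ghsr, the receptor of acylated ghrelin, and were killed 6 h after the injection. The saline controls therefore carry the same deletion, and no wild-type muscle or liver was analysed here. The remaining 4 arrays, of gonadal white adipose tissue (WAT), are used below only as values set beside those of the other tissues. By the methods, the tissues came from saline and UAG mice with n = 2, so arrays of different tissues may share an animal. The labels do not tie an array to a mouse, and a p-value here covers no more than the variation among these arrays.

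Muscle and liver divide much of the body's fuel metabolism between them. A muscle fibre is a contractile cell packed with filaments of actin and myosin, with a calcium store that triggers contraction, and it burns glucose, fatty acids and ketone bodies for its own use. The hepatocyte, the main cell of the liver, makes glucose, ketone bodies, urea and bile acids for the rest of the body, secretes most of the proteins of blood plasma and clears foreign compounds. Many steps that both cells perform are encoded by separate genes, a muscle form and a liver form.

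The values were deposited on a log2 scale and are given here as intensities, with values below the study's threshold of 30 set to 30, a floor below which values have no order. The arrays of a tissue are named in the order saline 1, saline 2, UAG 1 and UAG 2 throughout. The probe set of Ghsr itself read between 4.28 and 26.2 on all 8 arrays, which is below the floor in both tissues, and whether it lies within the deleted part is not known. Correlations across probe sets were 0.962 to 0.979 between muscle arrays, 0.970 to 0.980 between liver arrays and 0.594 to 0.639 between a muscle and a liver array, and muscle correlated with WAT at 0.794 to 0.885. The ratio of the 3′ to the 5′ control probe sets of Actb was 0.898 to 1.13 in muscle and 1.70 to 2.35 in liver, while that of Gapdh was 0.732 to 0.779 and 0.668 to 0.723. The part of this difference in the results was not tested. The highest deposited value was 18498 on most arrays and 25724 on liver UAG 2. Quantile normalization gives equal ranks equal values, so a reading of 18498 reflects rank. On muscle saline 2 Car3 held it and Tnnt3 read 18028. On liver UAG 2 Apoa1 read 25606 and Bhmt 23655, so the brightest ranks of that array lay above those of the arrays that end at 18498. Of the muscle arrays, saline 1 was low in slow fibre genes, saline 2 held epithelial keratins and the most adipocyte signal, and UAG 2 held neutrophil genes, and results that rest on these arrays are given with and without them where they are described.

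The first question was how many genes differ between the tissues. limma called a gene where the Benjamini-Hochberg adjusted p of its brightest probe set was under 0.05 and the levels differed at least 2-fold, with the treatment as a covariate. Of 12530 genes tested, 2336 (18.6%) were higher in muscle and 2015 (16.1%) were higher in liver. Of these 4351 genes, 4281 had 4 muscle and 4 liver values that did not overlap. The call itself favours such separation, so this count is not separate support. Genes not called, such as Car3 and Eef1a1, were also apart, and the share over all genes tested was not counted. The counts of probe sets were 4312 of 26335 (16.4%) and 3852 (14.6%). Differences of at least 4-fold were as frequent in both directions, with 933 genes each, whereas differences of at least 64-fold numbered 81 for muscle and 156 for liver. In 470 of the muscle genes all 4 liver arrays were at the floor, and in 393 of the liver genes all 4 muscle arrays were. Adjusted p alone, with no fold, was under 0.05 for 8487 genes. The median difference over all genes tested was 0.04 on the log2 scale. When the arrays were scaled to the median of their ribosomal protein genes in place of the deposited scale, that median moved to -0.29 and the share of called genes that were higher in muscle from 53.7% to 37.7%, so counts of genes with differences near 2-fold depend on the scale that is taken as equal.

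**Figure D1:**
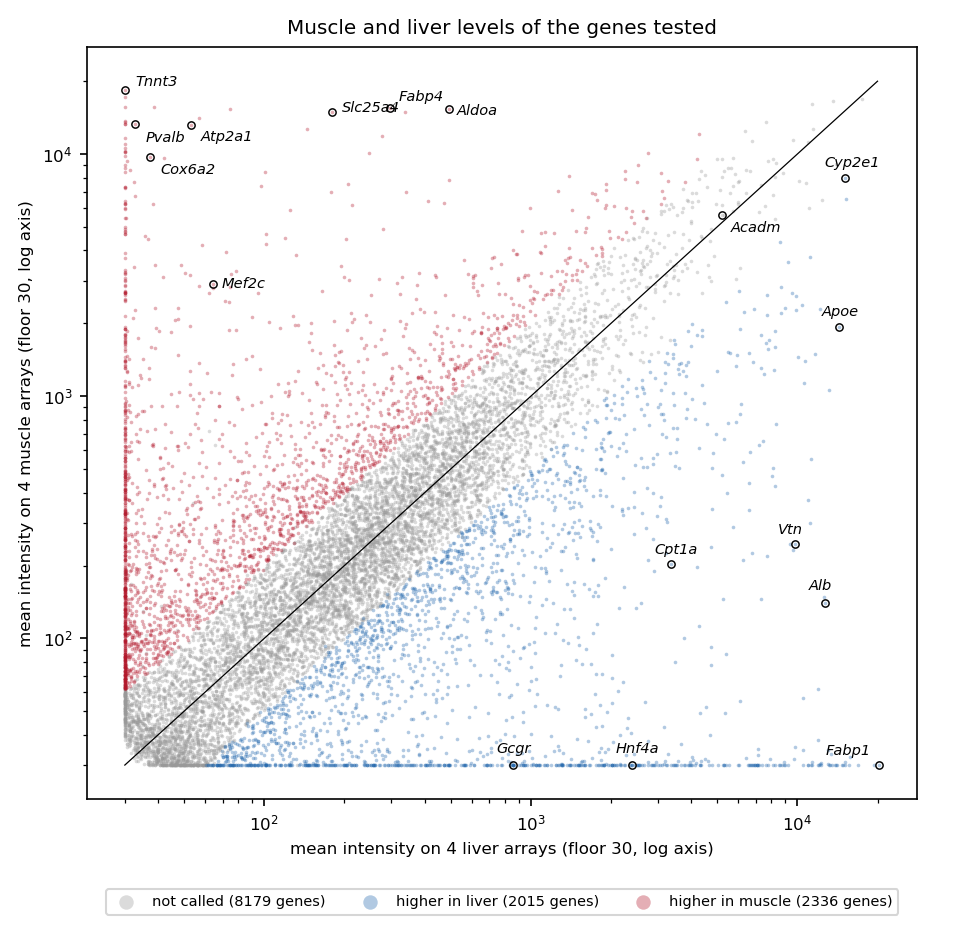
Mean intensity of each of the 12530 genes on the 4 liver arrays (horizontal, log axis) and the 4 muscle arrays (vertical, log axis), with values below 30 set to 30 and the line of equal levels drawn. The 2336 genes higher in muscle and the 2015 higher in liver lie away from the line on both sides, and the rows of points at 30 are genes at the floor in a tissue.

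The largest differences were those of contractile proteins and of plasma proteins. Tnnt3, the troponin T of fast fibres that holds troponin on the thin filament, read 18498, 18028, 18498 and 18498 on the 4 muscle arrays and below 30 on all 4 liver arrays, a level at least 613-fold higher in muscle (log2 difference 9.26 ± 0.08 SE, adjusted p = 3.87e-14 by limma). Myh4, the myosin heavy chain of the fastest fibres, read 14117, 14023, 13142 and 13520 in muscle and was at the floor on the liver arrays, at least 456-fold lower. The 15 largest differences towards muscle were otherwise Tnni2, Actn3, Myl1, Ttn, Acta1, Mylpf, Pvalb, Myh1, Tnnc2, Myh2, Mybpc2, Mb and Myot, with log2 differences from 9.17 for Tnni2 down to 8.41 for Myot. All of them encode parts of the sarcomere except Pvalb, a calcium buffer of fast fibres, and Mb, the oxygen store of muscle. Fabp1, the fatty acid binding protein of liver, was the reverse case. It read 18498, 18498, 18498 and 25724 on the liver arrays and below 30 on the muscle arrays, at least 670-fold higher in liver (log2 difference -9.39 ± 0.11 SE, adjusted p = 7.05e-14). Next were Apoa1 (-9.32), Bhmt (-9.11), Serpina1b (-9.02), Fga (-8.97), Fgb (-8.94), Ttr, Serpina1c, Apoa2, Pzp, Fbp1, Ahsg, Cps1, Cyp3a11 and Hamp (-8.76). Most of these products are secreted into blood. Bhmt, which remethylates homocysteine, Fbp1 of gluconeogenesis, Cps1 of the urea cycle and Cyp3a11, a drug-metabolizing cytochrome P450, act within the hepatocyte. The arrays of the dim tissue were all at the floor except for Pvalb, Mylpf, Serpina1c, Apoa2 and Fbp1, for which only some were. All of these folds are therefore lower bounds. Here and below, the SE and adjusted p of a gene leave out the spread of values that were set to the floor. Several bright values of Tnnt3 and Fabp1 were also tied at 18498. Probe sets of Myh1 with Myh4 and of the Serpina1 genes may share sequence, so the level of a single paralog is uncertain.

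Where both tissues were above the floor on all arrays, the largest differences towards muscle were those of Cox6a2 (8.03), a muscle subunit of cytochrome c oxidase, Atp2a1 (7.98), the calcium pump of the sarcoplasmic reticulum, Tcap (7.88), a cap of titin, Eno3 (7.71), the muscle enolase, and Cryab (7.32), a small heat shock protein. Those towards liver were Apoc3 (-7.59), an apolipoprotein of triglyceride-rich particles, Igfbp2 (-6.90), which binds insulin-like growth factors, and Ttpa (-6.83), the vitamin E transfer protein. They were followed by Ttc36 (-6.78), Gjb2 (-6.64) and Tfr2 (-6.61), an iron sensor. Alb, which encodes serum albumin, read 12010, 12638, 10618 and 15547 in liver and 79.4, 219, 138 and 126 in muscle, a difference of -6.58 ± 0.25 SE (adjusted p = 1.42e-09). The 4 WAT arrays read 115 to 219 for Alb, a range like that in muscle.

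Promoters of the called genes were searched for short motifs, since sequence had no part in the choice of the genes. To show what such a window holds, the 250 bases before the transcription start are printed, from RefSeq on GRCm38.p6. A chromosome was left out of the choice of genes. Those printed have, in each tissue, the most different motifs of its own tissue among the rest of the 100 largest differences. These are Myh4 (chr11:67237562-67237811, plus strand) and the fibrinogen alpha chain gene Fga (chr3:83025903-83026152, plus strand). Capitals mark the matches.
Myh4: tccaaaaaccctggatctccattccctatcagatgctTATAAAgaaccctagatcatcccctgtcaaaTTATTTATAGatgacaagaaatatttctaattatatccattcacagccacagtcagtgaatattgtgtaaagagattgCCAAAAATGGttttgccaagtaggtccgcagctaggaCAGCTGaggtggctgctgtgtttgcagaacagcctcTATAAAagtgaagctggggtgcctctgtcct
Fga: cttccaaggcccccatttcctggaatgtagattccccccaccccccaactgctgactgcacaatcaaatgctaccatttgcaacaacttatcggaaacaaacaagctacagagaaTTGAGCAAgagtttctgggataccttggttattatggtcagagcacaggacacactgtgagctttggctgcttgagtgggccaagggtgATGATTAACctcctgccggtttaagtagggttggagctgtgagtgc
In Myh4 the capitals are, from the 5′ end, a TATAAA match that starts 213 bases before the start site, a MEF2 match at 182 with a TATA match on the other strand inside it at 179, a CArG match at 104, the E-box CAGCTG at 67 and a second TATAAA at 31. In Fga they are a C/EBP match at 135 and an HNF1 match at 46. MEF2, the CArG box that serum response factor binds and the E-box that MyoD-family proteins bind are motifs of muscle genes, and HNF1, HNF4 and C/EBP are families of liver transcription factors.

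Both strands were searched with TATAAA as the TATA box, with GGGCGG as a GC box and with CAGCTG as the E-box. HNF1 was searched as GTTAATNAT, HNF4 was searched as CAAAGTCCA, C/EBP was searched as TTGCNNAA, and MEF2 and CArG by their consensus. The E-box CAGCTG was present in 38.3% of the 94 windows of the 100 genes with the largest differences towards muscle, of which 77 had a window, in 4.25% of the 94 windows of their 81 liver counterparts and in 13% of all 32851 promoter windows. MEF2 was present in 12.8%, 2.13% and 2.92% of the same sets and CArG in 8.51%, 1.06% and 1.47%. Towards liver, HNF1 was present in 7.45% of the windows of the largest differences, in none of those towards muscle and in 0.737% of all. C/EBP was present in 22.3%, 10.6% and 9.56%, and HNF4 in 3.19%, 0% and 0.384%. TATAAA was present in 16.0% of the muscle windows, 27.7% of the liver windows and 12.4% of all, while GGGCGG was present in 28.7%, 10.6% and 32.7%. Among the 10112 tested genes with a window, from which both sets were drawn, the shares were 7.42% for TATAAA, 54.6% for GGGCGG and 12.4% for CAGCTG, so GGGCGG was less frequent in both sets than among the genes tested. Over all called genes the shares lay closer together: CAGCTG in 15.3% of the windows of genes higher in muscle, 13.01% of those higher in liver and 11.4% of those not called, and HNF1 in 0.331%, 1.80% and 0.223%. These are descriptions of letters in a window. No match says only that these letters are not in it.

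The contractile apparatus was higher in muscle almost throughout. All 16 members tested of the thick filament list, myosins and their binding proteins, were called higher in muscle with a median log2 difference of 7.58, and 12 were at the floor on all liver arrays. Of the thin filament list, 17 of 18 were higher in muscle (median 6.33), among them the actin gene Acta1, which read 13030 to 13638 in muscle and below 30 in liver, at least 442-fold lower. The exception was Tpm3, a tropomyosin with slow muscle and cytoplasmic forms (-1.01 ± 0.16 SE, adjusted p = 0.000257). Of 19 Z-disc and costamere genes, which anchor the filaments and the membrane, 16 were higher in muscle (median 5.95). Ttn, the spring that spans the sarcomere, read 12002 to 14344 in muscle and below 30 in liver. Sntb1, a syntrophin, was higher in liver (-1.77). Csrp3 (0.54) and the brightest probe set of Dmd (0.60) were not called. Another probe set of Dmd passed the call (3.25), with 186 to 387 in muscle and values below 30 in liver, and the remaining one did not (0.40).

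Excitation and calcium release gave 22 of 23 genes higher in muscle (median 5.20). Ryr1, the calcium release channel, read 8212, 6304, 7191 and 7533 in muscle and below 30 in liver, at least 243-fold lower. Atp2a1 read 12818 to 13767 in muscle and 40.6 to 62.9 in liver, about 252-fold. Pln (1.06) and Sln (1.94), small inhibitors of the calcium pump, had the smallest called differences. Of 12 genes of phosphagens and purine nucleotides, which buffer ATP, 10 were higher in muscle (median 5.25). Ckm, the muscle creatine kinase, read 13213 to 14587 in muscle and 139 on liver saline 1 (8.32 ± 0.38 SE), and the other liver arrays were below 30. Without that liver array the difference was 8.86. Gamt, which makes creatine, was higher in liver (-3.27), with 1316 to 1573 there and 122 to 178 in muscle, whereas Gatm, of the step before it, was not called (-0.67).

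Transcription factors of muscle followed the same direction, with 12 of 15 members of the myogenic list higher in muscle (median 3.02). Mef2c read 2496 to 3526 in muscle and 54.5 to 80.7 in liver (5.50 ± 0.13 SE), and Myf6, a member of the MyoD family, read 935 to 1557 in muscle and below 30 in liver, at least 42.9-fold lower. Myog (0.98) was not called, nor was the brightest probe set of Srf (0.31), whereas the other probe set of Srf passed the call (1.59), with 210 to 280 in muscle and 67.0 to 84.7 in liver. Prox1, which acts in hepatocytes, lymphatic endothelium and slow fibres, was higher in liver (-3.63 ± 0.14 SE), where it read 341 to 396 and muscle was below 30. Of 11 genes of myokines and muscle growth signals, 9 were higher in muscle, with Apobec2 (7.28) and Asb5 (6.78) first. Fndc5, the precursor of irisin, was higher by 3.16 and the ubiquitin ligase gene Fbxo32 by 5.60.

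Within muscle the slow fibre genes split the arrays, a pattern that was chosen for description after the values were seen. Myh7, the slow myosin heavy chain, read 76.8, 808, 817 and 993 on the muscle arrays and below 30 on all liver arrays. Tnni1, the slow troponin I, read 86.4, 608, 540 and 577, and Myl3, a slow light chain, read 272, 2592, 2325 and 2424. Tnni1 read 57.7 on liver saline 1 and both genes were otherwise below 30 in liver. Muscle saline 1 was the low muscle array in each case, and all muscle arrays still lay above those of liver. Relative to the mean of the other muscle arrays, saline 1 held 0.088 of Myh7, 0.111 of Myl3, 0.145 of Tnnc1, 0.150 of Tnni1 and 0.153 of Tnnt1, and less was missing of the other slow genes compared, with 0.349 of Myl2, 0.586 of Myoz2, 0.626 of Casq2 and 0.731 of Atp2a2. For the 10 fast fibre genes compared the share was 0.927 to 1.16. Without that array the muscle minus liver difference was 4.84 in place of 3.98 for Myh7, 4.08 in place of 3.34 for Tnni1, 3.91 in place of 3.27 for Tnnt1, 4.82 in place of 4.14 for Tnnc1 and 6.36 in place of 5.56 for Myl3, and the differences of the fast genes moved by little, from 9.26 to 9.25 for Tnnt3 and from 8.83 to 8.82 for Myh4.

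**Figure D2:**
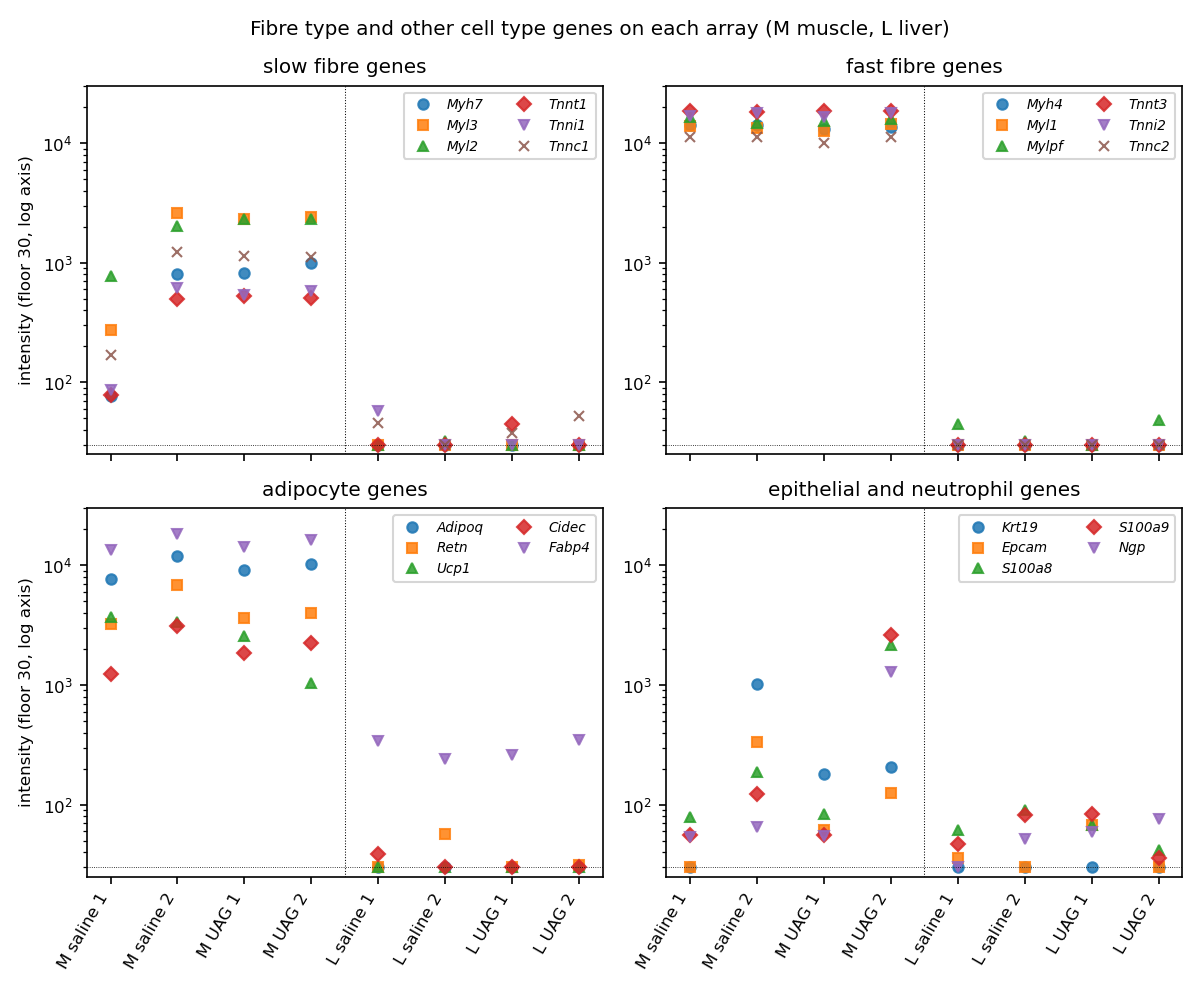
Intensity (log axis, values below 30 drawn at 30) of genes of slow fibres, fast fibres, adipocytes, and epithelium and neutrophils on each of the 8 arrays, M for muscle and L for liver. Slow fibre genes are low on muscle saline 1, where Myh7 is at 76.8, fast fibre genes are level over the 4 muscle arrays, adipocyte genes are high on every muscle array, and Krt19 and S100a8 are highest on muscle saline 2 and muscle UAG 2.

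The proteins that the liver exports formed the other pole. All 16 carriers and transport proteins of plasma, all 17 complement genes and all 25 genes of coagulation and fibrinolysis that were tested were higher in liver, with medians of -6.70, -5.98 and -7.02, as were 17 of 18 apolipoprotein and lipoprotein assembly genes (-6.62) and 13 of 14 acute-phase genes (-5.01). Fga read 13499, 14350, 14617 and 17950 in liver and below 30 in muscle, at least 500-fold lower. Ttr, which carries thyroxine and retinol-binding protein, read 13326 to 18560 in liver and was at the floor in muscle, at least 486-fold lower, and Hamp, which encodes the iron hormone hepcidin, at least 433-fold. Smaller differences fell to genes that other tissues also use, such as Apoe (-2.94), Pros1 (-1.53), an anticoagulant, and C1s1 (-1.92) of the first complement component. Apoe read 1245, 2912, 1659 and 1933 in muscle and 12910 to 17647 in liver, and 5144 to 7352 in WAT. Pltp (0.15), which moves phospholipids between lipoproteins, and Lcn2 (-0.81) were not called. Igf1, the growth factor that the liver supplies to blood, was 11.5-fold higher in liver (-3.53 ± 0.21 SE).

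Bile acid synthesis and transport had 18 of 18 genes higher in liver (median -5.23). Cyp7a1, the rate-limiting enzyme of bile acid synthesis, read 3495, 2063, 3478 and 5992 in liver and below 30 in muscle, at least 117-fold lower, and the bile acid importer Slc10a1 was at least 272-fold lower in muscle. All 19 cytochrome P450 pathway genes were higher in liver (median -7.16), from Cyp3a11 (-8.78) and Cyp2c50 (-8.73) to Cyp2e1, which oxidizes ethanol and is also expressed in fat. Cyp2e1 read 13242 to 18685 in liver, 3049, 11687, 7552 and 9623 in muscle and 12825 to 16072 in WAT, and its difference of -1.07 ± 0.32 SE fell to -0.66 without muscle saline 1. Several genes of the Cyp2c, Cyp2d and Cyp3a families are close paralogs whose probe sets may cross-react. Of the conjugation and export genes 23 of 27 were higher in liver (-3.03), with Ces1c (-8.64) and Ugt2b5 (-7.99) first, and Gstp1 (0.11), Gstm2 (0.28), Aox1 (0.02) and Ces1d (-0.78) were not called.

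Nitrogen metabolism was called towards liver at nearly every step. The urea cycle and ammonia list had 11 of 12 genes higher in liver (-4.19). Cps1, which commits ammonia to urea, read 11381 to 17129 in liver and below 30 in muscle, at least 445-fold lower. The remaining gene, Glul, makes glutamine from ammonia. It read 5214, 6979, 5871 and 7286 in muscle and 3243, 4201, 4595 and 4038 in liver, values that did not overlap but differed by less than 2-fold (0.66). Of 27 genes of amino acid catabolism 26 were higher in liver (-5.73), Hpd (-8.56) and Tat (-7.83) of tyrosine breakdown and Tdo2 (-8.50) of tryptophan breakdown among them, and Got1 (-0.32) was not called. Branched-chain amino acids stood apart from this, with 2 genes (10.5%) higher in muscle, 1 (5.26%) higher in liver and 16 of 19 not called (median -0.22). Of all genes 18.6% and 16.1% were higher in muscle and in liver. The 2 muscle genes were Bcat2 (1.65), which starts the pathway by transamination, and Bckdk (2.27), the kinase that inhibits the following dehydrogenase. The liver gene was Ppm1k (-1.68), the phosphatase that opposes that kinase.

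Sterols, glucose and ketone bodies also separated the tissues. Cholesterol synthesis had 15 of 17 genes higher in liver (-2.69), from Msmo1 (-4.30) and Sqle (-3.72) to Insig1 (-1.21). Gluconeogenesis and fructose use had 8 of 11 higher in liver (-4.23). G6pc, which releases free glucose, was at least 78.5-fold lower in muscle, and Pck1 read 6767 to 9549 in liver and 1083, 3683, 2099 and 1943 in muscle (-2.09). Pcx (0.01), Pck2 (0.08) and Mpc1 (0.69) were not called. Oxct1, which starts the use of ketone bodies and which hepatocytes lack, read 3162 to 3395 in muscle and 57.4 to 89.4 in liver (5.41 ± 0.13 SE). Bdh1, which interconverts the ketone bodies, read 2353, 3977, 3323 and 3210 in liver and 259 to 431 in muscle (-3.38 ± 0.18 SE). Slc16a3 (4.28), a lactate exporter, and Ldhb (3.52) were higher in muscle.

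Genes that encode a muscle and a liver or general form of the same step were compared as pairs, to ask whether the tissues swap forms or add a muscle form to a shared one. Of 30 pairs written, 25 had both forms matched to a probe set and 24 had both forms tested. Aldoa, Eno3, Hk2, Mat1a and Cpt1a were tested without their partners, so those pairs are left out. In 9 pairs both were called in opposite directions, in 12 the muscle form alone was called, in 1 both were higher in muscle, in 1 the liver form alone was called and in 1 neither. This split depends on the scale and on the 2-fold limit. With the ribosomal scale 14 pairs were called in opposite directions and the muscle form alone in 6, with Phkg2 at -1.32 in place of -0.99, Adss at -1.26 in place of -0.94 and Atp2a2 at -1.16 in place of -0.83. Glucose transporters swapped: Slc2a4, the insulin-responsive transporter, read 2331 to 2651 in muscle and 42.4 to 87.7 in liver (5.17 ± 0.19 SE), and Slc2a2 read 4838 to 5761 in liver and below 30 in muscle, at least 176-fold lower. In WAT Slc2a4 read 878 to 2705, and the part of fat cells in its muscle level was not tested. Fructose bisphosphatases did the same, with Fbp2 higher in muscle (4.54), at 937 to 1097 there and 36.8 to 54.0 in liver. Fbp1 was at 12377 to 17426 in liver and at most 30.4 in muscle (-8.85). Pyruvate kinase (Pkm 5.57, Pklr -4.16), glycogen synthase (Gys1 5.11, Gys2 -3.23), glycogen phosphorylase (Pygm 8.23, Pygl -1.46), fatty acid binding protein (Fabp3 7.35, Fabp1 -9.39), the adenine nucleotide translocase (Slc25a4 6.39, Slc25a5 -1.58), AMP deaminase (Ampd1 7.61, Ampd2 -1.47) and the nuclear receptors Ppard (1.25) and Ppara (-2.29) were the others. In 13 pairs the liver or general form was not called. Levels of the forms of a pair are read by different probe sets and were not set against each other.

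**Figure D3:**
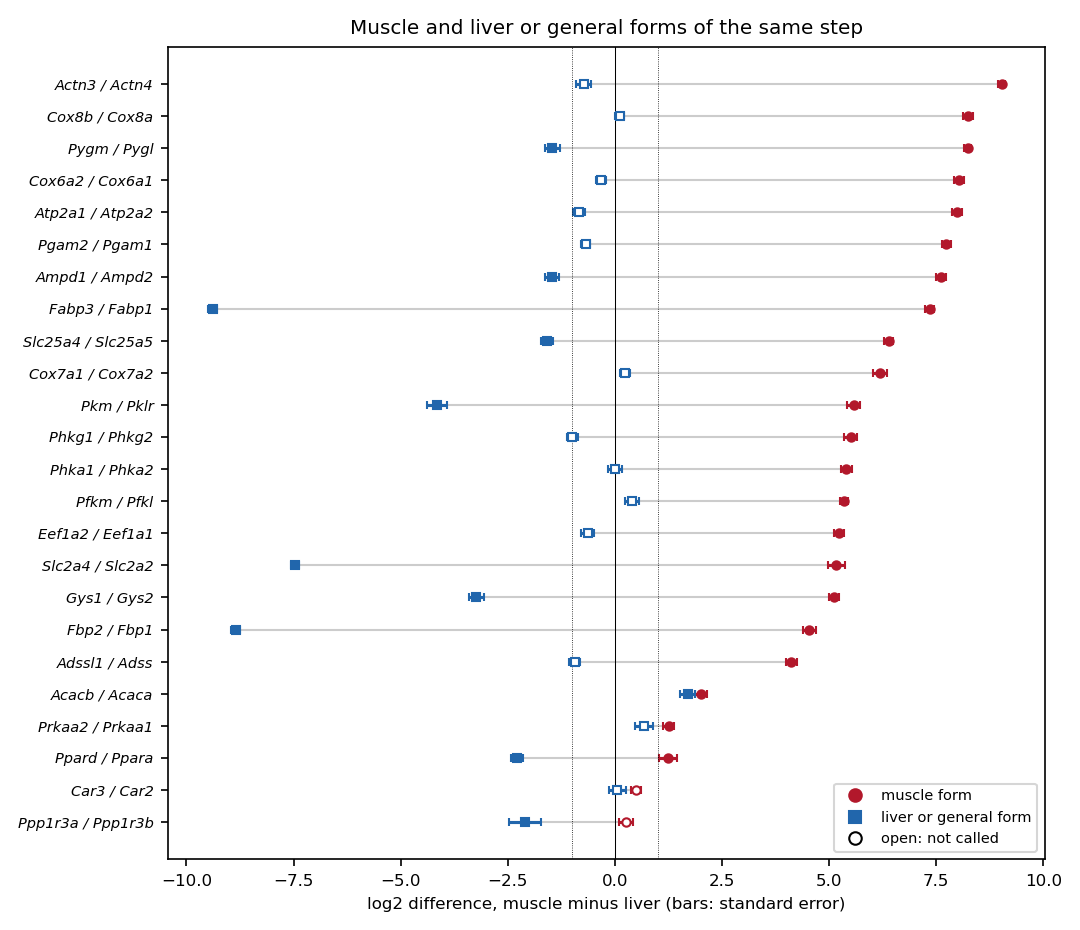
Log2 difference, muscle minus liver, of the muscle form (circles) and the liver or general form (squares) of 24 steps, with bars of 1 standard error and open symbols for genes not called. In 9 pairs filled symbols lie on both sides of 0, and in 12 the filled circle stands to the right of an open square.

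Cytochrome c oxidase showed the other kind of pair. Cox6a2 read 10041, 8837, 9832 and 10078 in muscle and 30.4 to 42.1 in liver, whereas its general form Cox6a1 read 4907 to 6913 in muscle and 6524 to 8371 in liver, a difference of -0.33 with a 95% interval of -0.60 to -0.05. Cox8b read 8051 to 10590 in muscle and at most 32.3 in liver (8.24), and Cox8a read 1974, 2714, 1977 and 1977 in muscle and 1841 to 2127 in liver, a difference of 0.11 with an interval of -0.14 to 0.36. Cox7a1 (6.19) and Cox7a2 (0.24) followed the same pattern. Phosphofructokinase (Pfkm 5.36, Pfkl 0.40), the phosphorylase kinase alpha subunit (Phka1 5.40, Phka2 0.00) and alpha-actinin (Actn3 9.02, Actn4 -0.73, or -1.06 and called with the ribosomal scale) were among the other steps with an added muscle form. Acetyl-CoA carboxylase was the pair with both forms higher in muscle, Acacb by 2.01 and Acaca, the form of fatty acid synthesis, by 1.70. In WAT Acacb read 905 to 3103 and Acaca 2512 to 6402, beside 1155 to 1366 and 1098 to 2140 in muscle. Acaca, Fasn (1.92) and Mogat1 (2.18) are also genes of fat cells, whose markers were high on all muscle arrays as described below. The part of those cells in the differences of these genes and of Acacb was not tested.

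Over all genes tested, 18.6% were higher in muscle and 16.1% in liver. Among the fuel pathways that both tissues run, glycolysis had 11 of 17 genes (64.7%) higher in muscle (median 1.87) and 2 (11.8%) higher in liver, Pklr and Aldoc (-3.16). Aldoa, an aldolase, read 14661 to 16178 in muscle and 466 to 507 in liver (4.97). Hk2, a hexokinase that insulin induces, read 2053 to 2734 and 51.9 to 93.7 (5.08). The glycogen list had 7 of 17 genes (41.2%) higher in muscle and 4 (23.5%) in liver, Pygl, Gys2, Ppp1r3b (-2.10) and Stbd1 (-1.40). The citric acid cycle with its regulators had 12 of 23 (52.2%) higher in muscle (1.04) and 2 (8.70%) in liver, Suclg2 (-1.54) and Pdk1 (-1.07). Cs, the citrate synthase, read 4270 to 5244 in muscle and 885 to 951 in liver (2.38 ± 0.09 SE). Pdk4, a kinase that shuts off pyruvate dehydrogenase in fasting, read 1994, 4622, 5249 and 3925 in muscle and 45.9 to 95.7 in liver (5.73 ± 0.29 SE). Of 40 genes of the respiratory chain and ATP synthase, 14 (35%) were higher in muscle and none in liver (median 0.89). The 3 muscle oxidase subunits led, and the next was Atp5o (1.86). With the ribosomal scale the count of 14 was 7 and the median 0.56, and with cyclic loess 8 and 0.64, and for the citric acid cycle the count of 12 was 10 with either.

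Fatty acid oxidation held many genes at like levels on the deposited scale. Of 20 genes written into the list 18 were tested (median -0.14). None was higher in muscle and 3 (16.7%) were higher in liver, beside 18.6% and 16.1% of all genes. For 10 of 18 the 95% interval of the difference lay within 0.5 on either side of 0, which was so for 13.3% of all genes tested. With the ribosomal scale the median was -0.46 and 4 of 18 had such an interval, and with cyclic loess 7 had. The ribosomal protein list went from 7 of 21 to 12 and 13. Since that list itself sets the ribosomal scale, its rise to 12 was favoured by construction. Acadm, the medium-chain dehydrogenase, read 5945, 5887, 4923 and 5638 in muscle and 4296, 5074, 5563 and 5957 in liver, so the tissues overlapped (0.11 ± 0.12 SE, interval -0.15 to 0.36). Hadha of the trifunctional protein read 2065 to 2250 and 1791 to 1926 (0.22). Cpt1a, the form of carnitine palmitoyltransferase of liver, had the largest difference, with 3077 to 3644 in liver and 104, 284, 212 and 212 in muscle (-4.14 ± 0.24 SE). Acaa2 (-1.68) and Eci2 (-1.36) followed. The muscle form of carnitine palmitoyltransferase was not among the genes tested, so its level is not known here. The oxidation of fatty acids outside mitochondria was uneven: 13 of 15 genes of peroxisomal and omega oxidation were higher in liver (-2.76), Cyp4a14 (-7.84) and the bile acid oxidase Acox2 (-5.76) first. Of 22 genes of fatty acid and triglyceride synthesis, 7 (31.8%) were higher in muscle and 5 (22.7%) in liver, beside 18.6% and 16.1% of all genes. The latter were those of long and polyunsaturated chains, Elovl2 (-6.74), Fads2 (-5.62), Fads1 (-3.21) and Elovl5 (-2.39), with Lpin2 (-4.08).

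**Figure D4:**
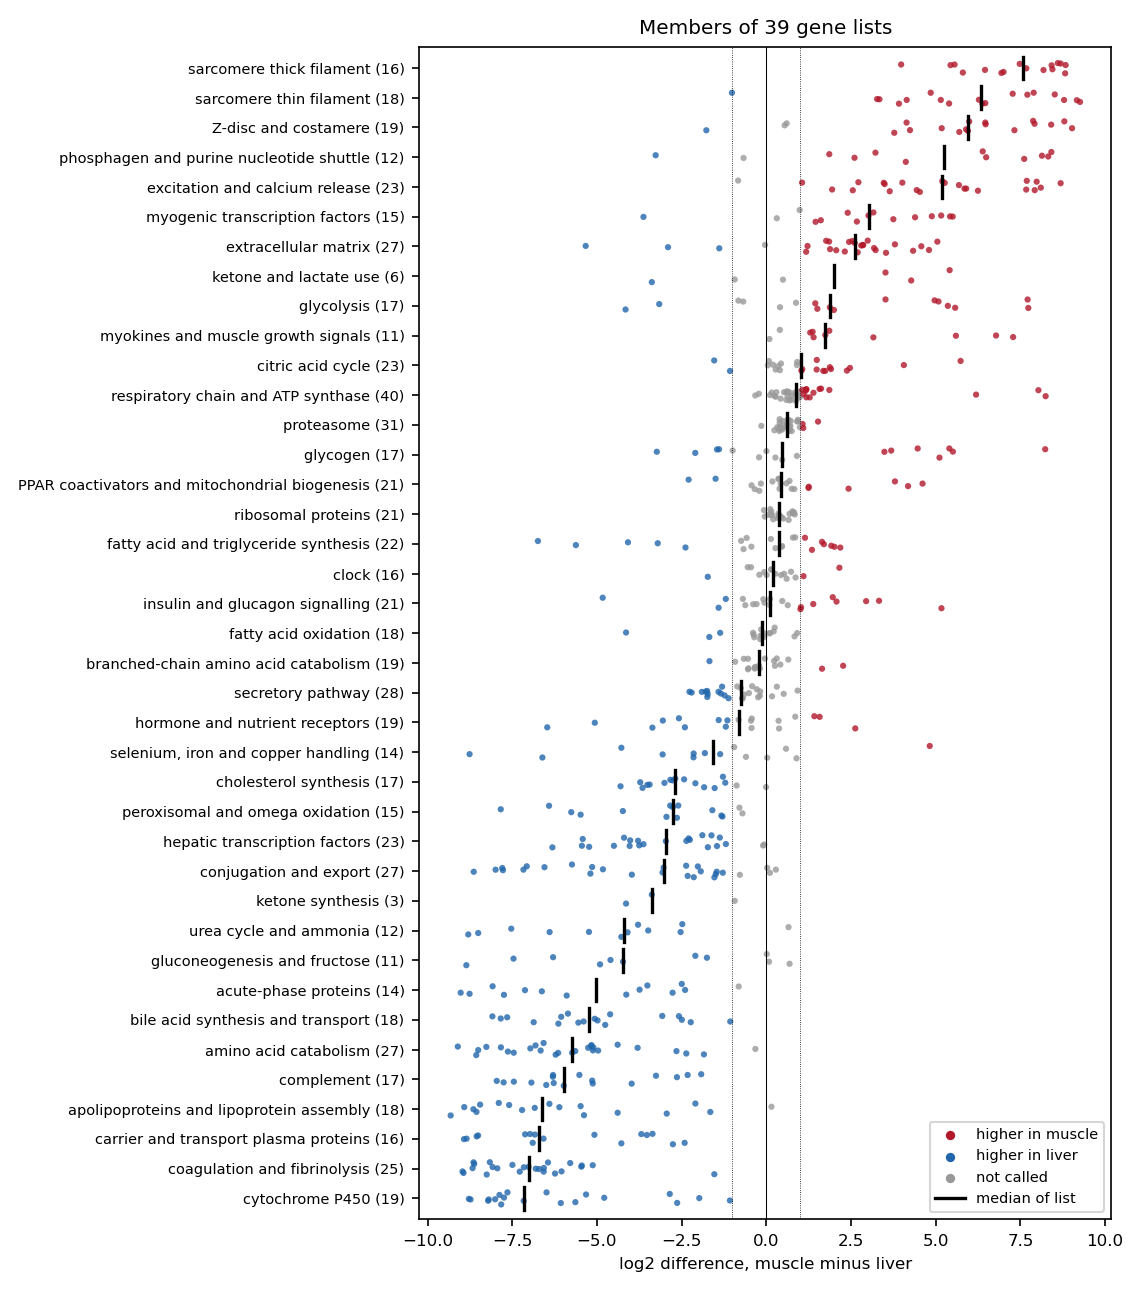
Log2 difference, muscle minus liver, of every tested member of 39 gene lists (points, with the number of members in brackets), coloured by call, with a bar at the median of each list and dotted lines at 1 and -1. Contractile lists lie to the right of 0, lists of secreted proteins, cytochrome P450 genes and amino acid catabolism to the left, and fatty acid oxidation, clock and ribosomal protein genes gather near 0 on the deposited scale.

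Of 21 genes of insulin and glucagon signalling 8 were higher in muscle and 3 (14.3%) in liver, where 18.6% and 16.1% of all genes were. The muscle genes beside Slc2a4 were Tbc1d4 (3.33) and Tbc1d1 (1.96), which hold that transporter inside the cell until insulin or contraction inactivates them, Grb10 (2.95), Irs1 (2.07 ± 0.15 SE), Gsk3b, Pik3ca and Akt2. Irs1, the receptor substrate, read 1967, 1816, 1400 and 1010 in muscle and 293 to 401 in liver, and Irs2 (0.09) and Insr (-0.29), the insulin receptor, were not called. Gcgr, the glucagon receptor, read 755 to 982 in liver and below 30 in muscle, at least 28.4-fold lower. Of 19 receptors for hormones and nutrients 9 (47.4%) were higher in liver, the asialoglycoprotein receptor genes Asgr1 (-6.47) and Asgr2 (-5.06) and Avpr1a (-3.36), Egfr (-3.05), Fgfr4 (-2.58) and Adra1b (-2.40) among them. The 3 (15.8%, beside 18.6% of all genes) that were higher in muscle were Fgfr1 (2.63), Igf1r (1.57) and Thra (1.42). The thyroid hormone receptors thus went opposite ways, with Thrb at -1.15.

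Of the hepatic transcription factors 21 of 23 were higher in liver (-2.97). Hnf4a read 2244, 2157, 2637 and 2545 in liver and below 30 in muscle, at least 79.6-fold lower, and Nr1i3 (-5.44) and Nr1h4 (-5.42), receptors for foreign compounds and bile acids, came next. Cebpb (-0.06) and Zhx2 (-0.10) had 95% intervals within 0.5 of 0. Foxa1 (-1.89) read 377 on muscle saline 2 against 293 to 455 in liver, and at most 108 on the other muscle arrays, and its difference was -2.69 without muscle saline 2. Among PPAR coactivators and genes of mitochondrial biogenesis 6 of 21 were higher in muscle, Perm1 (4.61), Prkag3 (4.18), Ucp3 (3.80), Pparg (2.43), Prkaa2 and Ppard, and 2 in liver, Ppara and Sirt3 (-1.50), shares of 28.6% and 9.52% beside 18.6% and 16.1% of all genes. Pparg is also one of the adipocyte markers, which were high on all muscle arrays, and their part in its difference was not tested. Ppargc1a, the PGC-1 alpha gene, was not called on its brightest probe set (0.36 ± 0.15 SE), while 2 of its 5 probe sets were called higher in muscle (1.65 and 1.45). Selenium, iron and copper handling gave Gpx3 (4.82), a secreted selenoprotein peroxidase, as the member higher in muscle, and 8 of 14 genes higher in liver.

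Ribosomal protein and proteasome genes were seldom called. None of 21 ribosomal protein genes was called (median 0.37). Of 31 proteasome genes 3 (9.68%, beside 18.6% of all genes) were higher in muscle, Psmd7 (1.53), Psmd6 (1.09) and Psmc2 (1.07), with a median of 0.61 that was 0.28 on the ribosomal scale. Genes of the secretory pathway, which folds and exports proteins, were higher in liver in 12 of 28 cases (42.9%, beside 16.1% of all genes). None was higher in muscle, beside 18.6% of all genes (median -0.73). On the ribosomal scale 17 were higher in liver, while that scale also raised the count over all genes from 2015 to 2825. P4hb, protein disulphide isomerase, read 6871 to 8586 in liver and 1459 to 1780 in muscle (-2.20 ± 0.09 SE), and the chaperone gene Hspa5 3797 to 4696 and 1642 to 2021 (-1.23). Extracellular matrix genes went towards muscle in 23 of 27 cases (2.61), led by Fmod (5.05), Thbs4 (4.80) and Col6a2 (4.58). The 3 matrix genes higher in liver were Vtn (-5.33) and Fn1 (-2.90), which the liver also secretes into plasma, and Bgn (-1.39). Of 16 clock genes 2 (12.5%) were higher in muscle and 1 (6.25%) in liver, below the 18.6% and 16.1% of all genes. Arntl, which encodes BMAL1, read 207, 133, 163 and 121 in muscle and 50.9 on liver UAG 2, with the other liver arrays below 30 (2.16 ± 0.24 SE), and Hlf, an output factor, 163 to 208 and 537 to 628 (-1.73). The intervals of Dbp (-0.06), Cry2 (0.01) and Tef (0.15) took in 0. The medians of 2 lists changed sign with the ribosomal scale, the clock median from 0.21 to -0.12 and the insulin and glucagon signalling median from 0.11 to -0.22.

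Markers of other cells bear on which cells these levels came from, and in bulk RNA fewer cells of a type and less RNA per cell cannot be told apart. The 9 hepatocyte markers tested were higher in liver and the 10 fibre markers higher in muscle. The fibre markers summed to 126999 to 136066 on the muscle arrays and 323 to 449 on the liver arrays. The hepatocyte markers summed to 87872 to 120083 in liver and 3338 to 12116 in muscle, where nearly all of the sum was Cyp2e1 and where Apoa1, Ttr and Hnf4a were below 30. All 8 adipocyte markers tested were called higher in muscle, with sums of 37640 to 56705 there, 946 to 1067 in liver and 64978 to 79215 in WAT. Fabp4 and Lpl, at 13399 to 18188 and 10539 to 13252, made up much of the muscle sums, so these are no measure of a share of fat. Muscle and WAT overlapped for Fabp4, Lpl and Lep. The other markers were lower in muscle, such as Cidec with 1229 to 3143 there and 7868 to 10322 in WAT. Adipoq, which encodes the fat hormone adiponectin, read 7674, 11936, 9114 and 10380 in muscle and below 30 in liver, at least 322-fold lower. Of 6 brown adipocyte markers 4 were higher in muscle, one of them Cox8b, which muscle fibres share. Ucp1, the uncoupling protein of brown fat, read 3713, 3348, 2558 and 1043 in muscle and below 30 in liver, at least 80.0-fold lower, and it read 503 to 6772 in WAT. The part of fat cells in the muscle values was not tested.

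Of the cells that line and patrol the tissues, 6 of 7 liver sinusoidal endothelial markers were higher in liver (Clec4g -5.25, Oit3 -3.89), as were 6 of 11 macrophage and Kupffer cell markers. Clec4f, a lectin of Kupffer cells, read 821, 977, 1020 and 929 in liver and below 30 in muscle, at least 31.1-fold lower, and Cd5l 1283 to 1361 and at most 30.9. General macrophage genes, Cd68 (-0.50), Csf1r (-0.81) and Adgre1 (-0.95), differed by less than 2-fold on their brightest probe sets and were not called, although the tissues did not overlap for Csf1r and Adgre1 and the other 2 probe sets of Csf1r were called higher in liver (-1.08 and -1.28). Of 10 endothelial markers 4 (40%, beside 18.6% of all genes) were higher in muscle, one of them Fabp4, which fat cells share. Fibroblast and stellate cell markers divided, with Col1a1 (3.80), Col3a1 and 5 others higher in muscle, among them Des, which is also in the Z-disc list, and the stellate cell genes Lrat (-3.05), Reln (-2.76) and Hgf (-1.75) higher in liver. Of 7 smooth muscle markers 5 were higher in muscle, Synpo2 (6.74), which striated fibres share, among them. Of 5 satellite cell and peripheral nerve markers 3 (60%, beside 18.6% of all genes) were higher in muscle. These were Mbp (4.47) and Pmp22 (3.23) of myelin and Cdh15 (1.44). Vcam1 (-1.04) was higher in liver and Sox10 (-0.22) was not called. None of 6 lymphocyte markers was called. Krt19, a keratin of ducts and other epithelia, read 1015, 179 and 206 on muscle saline 2, UAG 1 and UAG 2 and below 30 on muscle saline 1 and in liver (2.61 ± 0.79 SE), and 1.61 without muscle saline 2. S100a8, of neutrophils, read 78.3, 189, 82.7 and 2172 in muscle and 42.0 to 90.8 in liver, and was not called (1.85, adjusted p = 0.0778 by limma), and its difference was 0.68 without muscle UAG 2. The neutrophil list had 2 of 7 markers (28.6%) called higher in muscle, Ltf and Mmp9, and 1 without muscle UAG 2, 1 without muscle saline 2, 3 without muscle saline 1 and 5 without muscle UAG 1.

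A gene is a poor unit where its probe sets read different transcripts, and 29 of 5794 genes with 2 or more tested probe sets had probe sets called in both directions. The 4 described here were chosen after their values were seen. Pdlim5, a protein of the Z-disc that other cells also make, had 2 probe sets higher in muscle (7.01 and 4.73) and 5 higher in liver (-1.14 to -2.21). The brightest read 4754, 3366, 4529 and 5717 on the muscle arrays and at most 47.2 on a liver array, whereas another read 206 to 321 in muscle and 510 to 619 in liver. Tpm3 had 2 probe sets higher in muscle (3.84 and 3.97) that read at most 38.7 in liver, and the brightest, higher in liver (-1.01), read 1147 to 1243 there and 397, 734, 609 and 682 in muscle. Muscle saline 1, the array low in slow fibre genes, was also the lowest muscle array for all 5 probe sets of Tpm3, and without it the brightest was not called (-0.80). Atp2a2, the pump of slow fibres and most other cells, had 1 probe set higher in muscle (1.20), 2 higher in liver (-1.08 and -1.45) and a brightest that was not called (-0.83). Pde4dip had 3 higher in muscle and 1 higher in liver (-1.86). Which transcript each probe set reads was not tested.

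**Figure D5:**
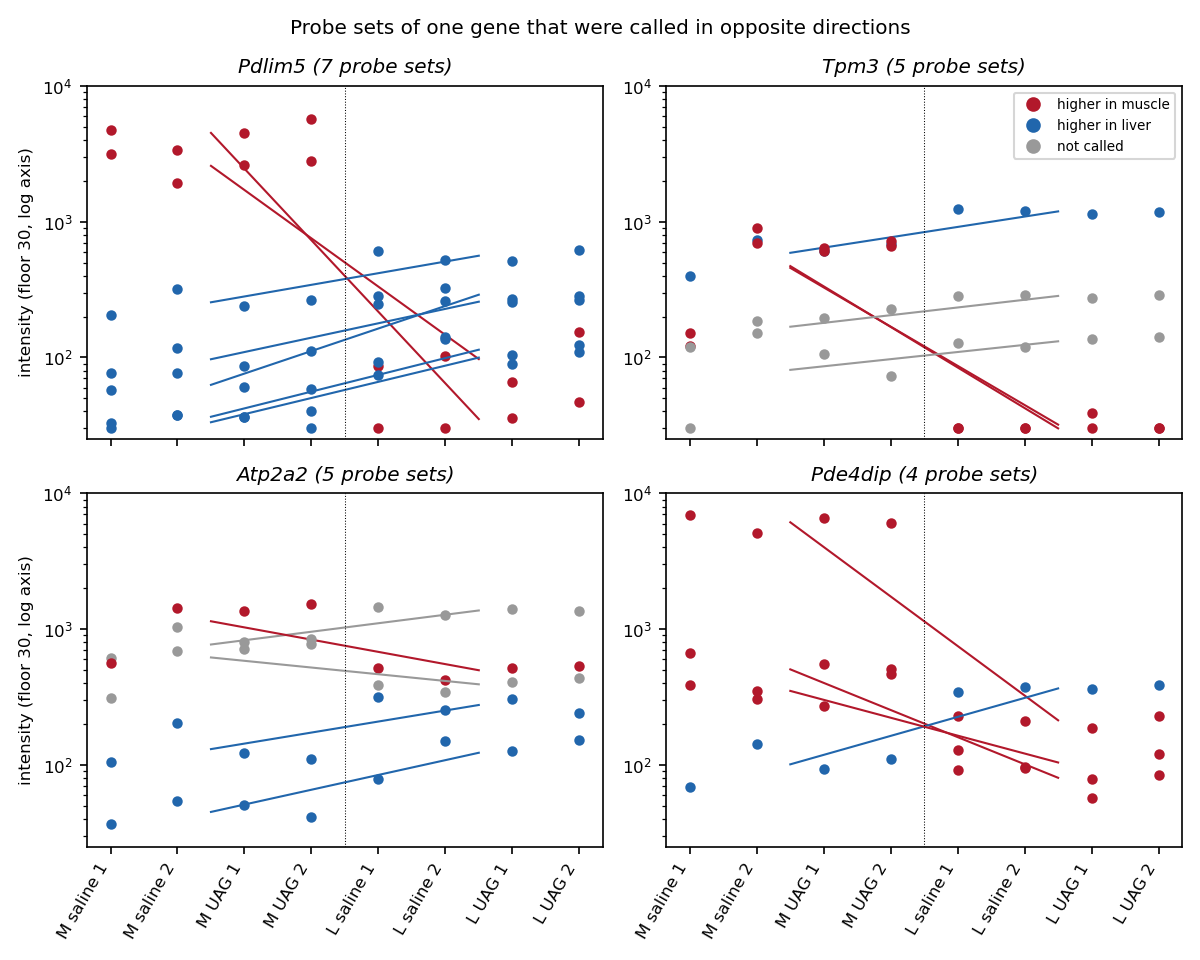
Intensity (log axis, values below 30 drawn at 30) of every tested probe set of Pdlim5, Tpm3, Atp2a2 and Pde4dip on each array, coloured by call, with a line that joins the geometric means of the muscle (left) and liver (right) arrays for each probe set. In every panel red and blue lines cross in slope, so that the direction depends on the probe set.

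Whether the tissue difference was the same after saline and after UAG was tested as the interaction of tissue and treatment. limma called 0 of 26335 probe sets (0%), with a smallest adjusted p of 1.00, and 637 had an unadjusted p under 0.05, fewer than the 1317 that this threshold gives by chance. With 2 arrays per tissue and treatment a difference in response that is smaller than the spread between arrays was not detectable. Finally, 1669 genes (13.3%) had like levels in both tissues, with a 95% interval within 0.5 on either side of 0. The 6 brightest were the mitochondrial ND5, Tpt1, Fth1, a ferritin chain, Rps29, a ribosomal protein, and Cox7a2 and Atp5g3 of the respiratory chain. Tpt1 read 12024 to 13066 in muscle and 10708 to 13229 in liver (0.16, interval -0.07 to 0.38), and Fth1 9388 to 12128 and 10243 to 12239 (0.03, interval -0.20 to 0.25), so that in these genes the tissues overlapped.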

How the data were processed

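RNA of M. vastus lateralis and liver was hybridized by the authors to Affymetrix Mouse Genome arrays, 1 per sample. The authors deposited log2 values that they had quantile normalized. Per the labels, MAS5 was used, without a version, and the base of the logarithm, which the sources used here do not give, was taken as 2 because the largest value is then an intensity of 25724, within the range of a scanner, which it would exceed with base e. When each of the 12 arrays was sorted, 97.74% of ranks spanned no more than 0.05 on the log2 scale. The precision is limited by the number of arrays, 4 per tissue.

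Of 45101 probe sets, 64 controls were left out, 34945 named 1 gene, 932 named several and 9160 had no gene name in the annotation used. Tests took the probe sets that averaged 30 or more in intensity over the 8 muscle and liver arrays, and single values under 30 were then raised to that floor. The muscle minus liver difference was fitted with limma 3.58.1 in R 4.3.3 (lmFit, eBayes with an intensity trend) with treatment as a covariate, which leaves 5 residual degrees of freedom, with Benjamini-Hochberg adjustment over every probe set tested. Called genes have an adjusted p under 0.05 and a log2 difference of at least 1, read on the brightest probe set that names 1 gene. A fold is a ratio of geometric means, and a lower bound where the dimmer tissue is at 30. Probe sets are not scaled to each other, so levels of different genes were not compared.

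Lists are described by their counts and medians, with no test, and are to be read against the shares and the median of all genes tested, which stand with the counts of all genes and beside some lists. Of 910 genes written into 53 lists, 817 matched a probe set. The members and lists were chosen with earlier results of these data known. Genes were named by rule: the 15 largest differences in each direction whose arrays did not overlap, up to 4 members of each list and those against its larger direction, all pairs and cell type markers, and the 6 brightest genes of like level. Other list members and the largest differences measured in both tissues were named after their values were seen. Promoters are RefSeq windows on GRCm38.p6, of which 10112 genes tested had at least 1. The planned comparison of cytochrome c oxidase proteins was not run. The fit was tested on simulated data. Alternatives were other normalizations, floors, filters, call rules, covariates, probe set choices, single treatments, a replicate block and each array left out.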

Additional observations from a re-analysis of the deposited data

Results flagged for a closer look

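In 101 groups of 4 arrays, for 64 genes whose values are given array by array, the highest or lowest array was tested for a gap to its neighbour that, over the group's range, exceeds Dixon's 95% critical value. This was so in 18 groups, and chance would give about 5 if the values of a group were never tied. Where the other arrays of a group share a value, at the floor or at the top, any different value gives a gap equal to the range. Some flags were fixed by such ties, and the slow fibre genes were picked after their values were seen. The 18 groups therefore do not show an excess over chance. The gaps were taken on the log2 scale, after values below 30 were set to 30, and intensities are given here.

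On muscle saline 1, Myh7 at 76.8, Tnni1 at 86.4, Tnnt1 at 78.5 and Myl3 at 272 lay below the other muscle arrays. On liver UAG 2, Fabp1 at 25724, Ttr at 18560, Hamp at 16066 and Arntl at 50.9 lay above the other liver arrays. For bright genes this was not a trait of single genes, since Apoa1 at 25606, Bhmt at 23655 and ND5 at 22097 were also highest there. On liver saline 1, Ckm at 139, Tnni1 at 57.7 and Cox8b at 32.3 lay above, while the other liver arrays were below 30. Pvalb was lowest on muscle UAG 1, at 12713, and in liver it was above the floor on saline 2 alone, at 41.0. Tnnt1 was above the floor on liver UAG 1 alone, at 45.1. Cox8a was highest on muscle saline 2, at 2714, and Tnnt3 was 18028 there and 18498 on the other muscle arrays. Fbp1 was 30.4 on muscle UAG 1 and Cd5l 30.9 on muscle UAG 2, just above a floor that held the other muscle arrays.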

How the results depend on the processing

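The counts of called probe sets (8164 in all) and genes (4351) stayed within 1.5 times with 4 other normalizations, no floor, other filters, no intensity trend, all 12 arrays, no covariate, a single treatment and other probe set choices. A floor of 100 left 5127 probe sets (2630 higher in muscle, 2497 higher in liver). Without the fold the counts were 16524 probe sets (8629 and 7895) and 8487 genes (4509 and 3978). A test against a 2-fold difference gave 4883 probe sets (2529 and 2354) and 2784 genes (1453 and 1331), and a log2 difference of at least 2 gave 3137 probe sets (1580 and 1557) and 1866 genes (933 and 933). These settings ask for more or less by construction. Genes of like level numbered 2801 with a floor of 100, 3502 with probe sets above 30 on any array, 405 on saline arrays and 818 on UAG arrays, in place of 1669, and the cause was not tested. With each array left out in turn, probe sets called ranged from 8002 to 8432 (4214 to 4410 higher in muscle, 3788 to 4022 higher in liver), genes from 4289 to 4460 (2268 to 2345, 1986 to 2115), genes of like level from 1329 to 1540, and lists with most members called one way, 36 of 53, from 34 to 36. The test by limma of whether the tissue difference depended on treatment called 0 probe sets in the settings tried, with 575 to 1461 at an unadjusted p under 0.05 and a smallest adjusted p of 0.0536, without liver saline 2.

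Of 302 named genes 201 kept their direction and their side of the threshold in every one of 29 settings that tested them, and 5 results turned. Tpm3 was 1.07 with the mean of its probe sets, and with the dimmest probe set Arntl was -0.45, Cp 0.13, Dio2 -0.16 and Smyd1 -1.07. The larger direction of the clock list turned with the mean of probe sets. The cause was not tested. Deviations of muscle and liver arrays with the same number correlated at 0.077 for saline and 0.012 for UAG, which shows no shared deviation, and the labels do not say that a number marks a mouse, so the numbers were not used as pairs. With a replicate block, 8175 probe sets and 4357 genes were called, 1728 genes had like levels, 36 lists had most members called one way and the interaction gave 0, so no count moved over 1.5 times. Low signal limits 470 genes called higher in muscle and 393 called higher in liver to a lower bound, since all arrays of the other tissue were at the floor.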
